A study of Homo sapiens with 15 samples.

Results

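RPTEC/TERT1 cells, an immortalized human line of renal proximal tubular epithelium, were grown alone on LN/FN-silk membranes (silk) or on LN/PC membranes, and their transcriptomes were compared. The comparison was defined by the sample titles and covers 6 of the 15 libraries of the series, 3 on each membrane (silk 1 to 3 and LN/PC 1 to 3). Of the other 9 libraries, 6 came from the same cells grown with fHDF/TERT166, an immortalized line of dermal fibroblasts, on the same membranes, and 3 from fibroblasts alone. All epithelial monocultures shared the cell line, a seeding density of 140000 cells per cm2, a medium with 5 mM glucose, 10 ng/ml EGF, 36 ng/ml hydrocortisone, insulin, transferrin, selenite and 0.5% FBS, and collection 14 days after seeding. No drug, gene edit or other agent separated the groups. The labels do not spell out LN, FN or PC. Silk was scraped off for RNA extraction while LN/PC membranes were cut out with a blade, and the membrane and this step of the harvest cannot be told apart in any value given here. Each sample pooled 3 to 8 membranes, and whether the replicates are independent cultures is not in the labels. The p-values rest on the spread of samples within groups, and that may be technical.

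The proximal tubule reabsorbs most of the glomerular filtrate through sodium-coupled carriers of its brush border and secretes organic anions and drugs. Its cells rest on a basement membrane of laminins and collagen IV, which they bind through integrins and which they help to make. Injured or inflamed tubules are known to make complement components, acute phase proteins, interferon-induced proteins and matrix proteases, and to lower their carriers.

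Values are normalized counts, the deposited log2 values turned back to a linear scale. Each monoculture library held 9078771 to 10881354 normalized counts over 15790 genes. In a principal component analysis of the 6 libraries, the first component (51.7% of the variance) placed silk at 28.2 to 49.3 and LN/PC at -63.6, -35.6 and -8.51. LN/PC 2, the library at -8.51, also stood apart on the second component (18.9%), at 42.1 against -32.9 to 16.6 for the other 5. Mitochondrially encoded transcripts took 4.23% to 6.58% of counts on silk and 1.5% to 3.80% on LN/PC, with LN/PC 2 again nearest to silk. Of 20 proximal tubule markers, 9 were in the table and together took 0.0877% to 0.0970% of counts on silk and 0.0607% to 0.0840% on LN/PC. The brush border enzymes GGT1, ANPEP and DPP4 were at 1046 or more in all 6 libraries, while CUBN, an endocytic receptor, ran from 25.8 to 108 and AQP1, a water channel, from 5.29 to 14.7. LRP2, HNF4A, SLC34A1 and SLC22A6 were not analysed here. Markers of the loop of Henle, distal tubule and collecting duct were also present (7 of 19 in the table, 0.106% to 0.127% of counts on silk and 0.129% to 0.165% on LN/PC). Of 25 fibroblast markers, COL3A1, FAP, PRRX1, TWIST1, POSTN and DPT were at 0 in all 6 libraries and 14 were under 10 in all 6. Together the 25 took 0.0372% to 0.0449% of counts on silk and 0.0362% to 0.0440% on LN/PC. Higher on silk were COL5A1 (47.2, 42.7 and 66.5 on silk and 28.7, 34 and 28.8 on LN/PC, adjusted p = 0.0473) and, at low counts, PDGFRB (15.8, 5.16 and 9.73 on silk and 2.53, 0 and 0 on LN/PC, adjusted p = 0.00931), which was chosen after its values were seen. FBLN1 was lower (825, 778 and 594 on silk and 1177, 958 and 1175 on LN/PC, adjusted p = 0.0264). The COL5A1 and FBLN1 calls were lost without silk 3, LN/PC 1 or LN/PC 3 and that of COL5A1 also without silk 1 (adjusted p 0.0760 to 0.147 and 0.0835 to 0.0961), and FBLN1 was also not called after rescaling to equal totals (adjusted p = 0.0573). Of 16 endothelial and immune markers 3 were in the table, and of those PECAM1, an endothelial adhesion molecule, was lower on silk, at 9.74, 1.33 and 1.18 on silk and 43.6, 97.7 and 16.1 on LN/PC (log2 difference -3.48 ± 0.88, SE, limma adjusted p = 0.0199). That call was lost without silk 2, silk 3 or LN/PC 1 (adjusted p 0.0582 to 0.0723).

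Of 14433 genes tested by limma, 1685 (11.7%) differed between the membranes at a Benjamini-Hochberg adjusted p under 0.05, which is what called, higher and lower mean throughout. Silk was higher for 849 (5.88%) and lower for 836 (5.79%). Counts of list members called are to be read beside these shares. The median log2 difference over all tested genes was 0.03, with the middle of the distribution, from the lower to the upper quartile, between -0.29 and 0.38. Higher genes differed by a median of 1.08 log2 units, and 469 differed at least 2-fold, 96 at least 4-fold and 13 at least 8-fold. Lower genes differed by a median of 0.83, with 301, 87 and 40 at those folds. The 3 silk and 3 LN/PC libraries did not overlap for 3814 genes (26.4%), among them 812 of those called higher and 777 of those called lower. Most called genes thus did not overlap, and a lack of overlap in a called gene named below adds little to its call. The largest differences were also chosen for naming only where the groups did not overlap. Spread within a group was larger on LN/PC, where the median SD of log2 values was 0.27 against 0.21 on silk (10266 genes with a mean of at least 100). The number of calls depended on single libraries: it was 3208 without LN/PC 2, 1067 without LN/PC 1, 695 without LN/PC 3, 881 without silk 1, 1042 without silk 2 and 1040 without silk 3. It was 754 with only the 6 monoculture libraries in the fit and 1037 with no mean-variance trend. Calls that held whichever of the 6 libraries was left out numbered 277 higher and 254 lower. Rescaling to the same upper quartile moved the share of higher genes among the calls from 50.4% to 60.5%, and rescaling to equal totals moved it to 62.9%, with the median over all genes going from 0.03 to 0.10 and 0.14. Differences below are relative to the scaling of the deposited table. In bulk RNA, fewer cells of a kind and less RNA per cell cannot be told apart.

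**Figure D1:**
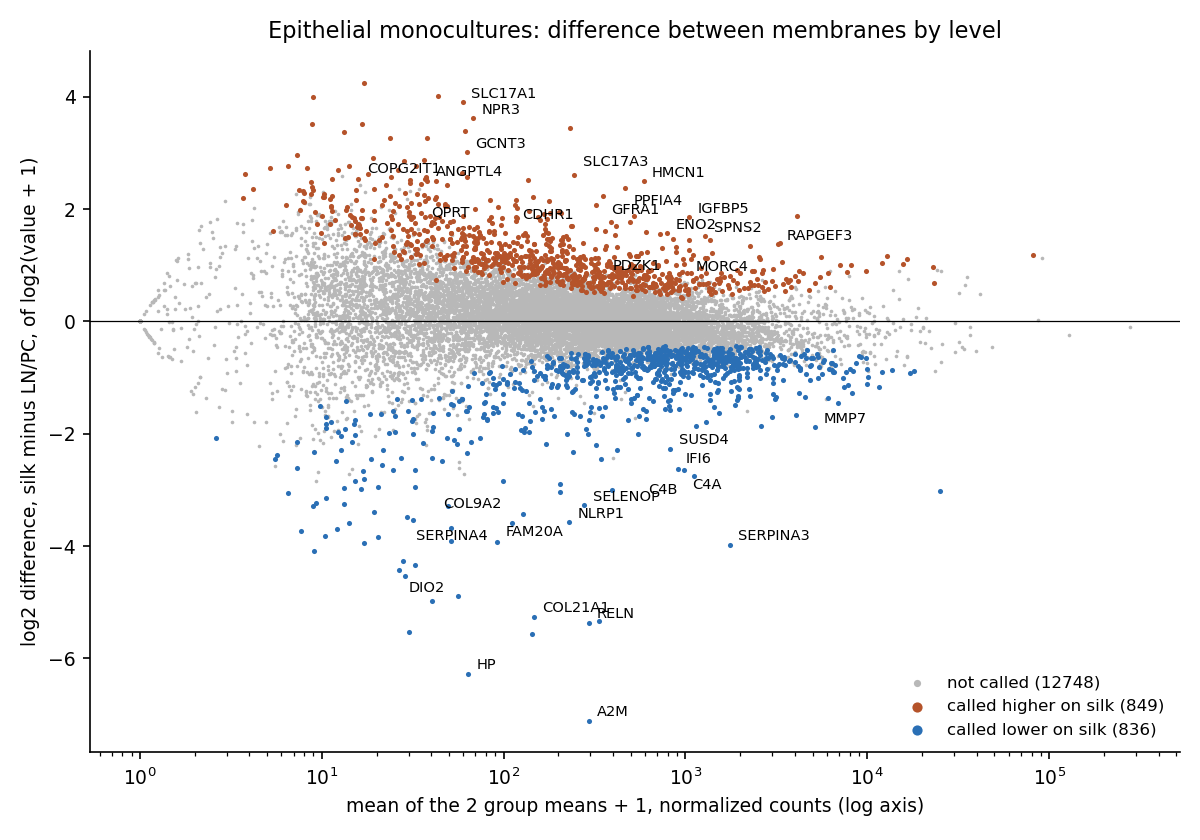
Log2 difference between silk and LN/PC monocultures (vertical axis, silk minus LN/PC, of log2(value + 1)) against the mean level of each of 14433 tested genes (horizontal log axis, normalized counts + 1). Coloured points are the 849 genes called higher and the 836 called lower on silk, and the labelled lower genes reach further from 0 (A2M at -7.11) than the labelled higher ones (SLC17A1 at 3.91).

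Among 15 tested carriers of organic anions and cations, 4 were called higher and none lower (8 and 0 at an unadjusted p under 0.05), against 5.88% called higher over all genes, with a median log2 difference of 0.55, and 3 to 5 were called higher with 1 library left out. SLC17A1, SLC17A3 and SLC17A4 are members of 1 family of phosphate and organic anion transporters of the apical membrane. SLC17A1 stood at 109, 89.6 and 115 on silk and 26.7, 11.5 and 0 on LN/PC, a log2 difference of 3.91 ± 0.83 (SE, limma adjusted p = 0.00744). The difference was 2.50 without LN/PC 3, which lists the gene at 0. SLC17A3 stood at 506, 288 and 455 on silk and 117, 54.2 and 43.6 on LN/PC, 5.8-fold higher (log2 2.61 ± 0.33, adjusted p = 0.000165). SLC17A4, which lies between them on chromosome 6, was at 39.3, 32.4 and 27.3 on silk and 13.7, 5.89 and 4.08 on LN/PC (log2 2.07 ± 0.48, adjusted p = 0.0122), and its call was lost without silk 1 or LN/PC 3 (adjusted p 0.0541 to 0.0602). In all 3 genes every silk library lay above every LN/PC library. SLCO4C1, the organic anion transporter of the basolateral membrane, was 2.13-fold higher (2232, 1384 and 1735 on silk and 878, 1111 and 525 on LN/PC, adjusted p = 0.00889). PDZK1, the scaffold that anchors apical transporters, was at 1165, 1122 and 1427 on silk and 570.5, 555 and 446 on LN/PC (2.36-fold, log2 1.24 ± 0.15, adjusted p = 0.000101).

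Other transporters moved in both directions. Of 23 amino acid transporters tested, 2 were higher and 3 lower (1 higher without silk 1, silk 2, LN/PC 2 or LN/PC 3, and 1 lower without silk 3 or LN/PC 1). The higher ones included SLC1A1, the apical glutamate and aspartate transporter, which stood at 219.6, 162 and 184 on silk and 55.1, 51.3 and 33.3 on LN/PC (4.05-fold, adjusted p = 0.000101). The lower ones were SLC7A8, SLC1A5 and SLC7A2. SLC7A8, a neutral amino acid transporter of the basolateral membrane, was near the floor at 0, 1.12 and 0 on silk and 5.44, 32.9 and 7.92 on LN/PC (log2 -3.28 ± 0.64, adjusted p = 0.00455) and was chosen after its values were seen. SLC1A5, a glutamine transporter, differed by -0.76 ± 0.23 (adjusted p = 0.045), with silk 1 among the LN/PC libraries, and by -0.48 without silk 3. Its call was lost without silk 2, silk 3, LN/PC 1 or LN/PC 3 (adjusted p 0.112 to 0.166). SLC7A2, a transporter of basic amino acids, differed by -0.74 ± 0.18 (adjusted p = 0.0185), a call lost without silk 3 or LN/PC 1 (adjusted p 0.0707 to 0.0802). Of 29 carriers of ions, phosphate and bicarbonate, 4 were higher and 3 lower (5 lower without LN/PC 2), with a median of -0.01 that became 0.06 after rescaling to the upper quartile. FXYD2, the gamma subunit of the sodium pump, was higher at 18849, 14937 and 14468 on silk and 6595, 6688 and 10462 on LN/PC (adjusted p = 0.00972), and so was the potassium channel gene KCNJ15 (1.86-fold, adjusted p = 0.00657). SLC12A1, the sodium, potassium and chloride cotransporter that marks the thick ascending limb, was lower on silk, at 3298, 5555 and 6181 on silk and 10726, 10505 and 10536 on LN/PC (adjusted p = 0.00355). Its LN/PC values lay close together, while the silk values ran from 3298 to 6181 and stayed below them. AQP3, a water channel of the collecting duct, was 6.72-fold lower (10.1, 9.38 and 5.11 on silk and 48, 52.5 and 64.7 on LN/PC, adjusted p = 0.000769). SLC39A14, a zinc and iron transporter, was 2.47-fold lower (adjusted p = 0.00743). Of 17 ABC transporters 2 were higher and 2 lower (5 lower without LN/PC 2). The higher ones included ABCC5, an exporter of cyclic nucleotides and organic anions, at 1251, 1298 and 1403 on silk and 744, 651 and 560.0 on LN/PC (adjusted p = 0.00049), while the drug efflux pump ABCB1 did not pass the test (log2 0.37 ± 0.26, adjusted p = 0.359).

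Of 14 brush border proteins and endocytic receptors tested, 1 was higher and 3 lower, with a median of -0.32 (0 lower without silk 3). That is 28.6% called, against 11.7% over all genes. ENPEP was higher (log2 2.57), and ESPN (-2.44), FOLR1 (-1.03) and DAB2 (-0.65) were lower. GGT1 stood at 2389, 2270.1 and 1622 on silk and 2594, 2296 and 2668 on LN/PC (log2 -0.28 ± 0.19, adjusted p = 0.336). ANPEP had a log2 difference of 0.47 ± 0.22 (adjusted p = 0.169), DPP4 of 0.16 ± 0.24 (adjusted p = 0.703), CUBN of 0.47 ± 0.62 (adjusted p = 0.654) and AQP1 of 0.09 ± 0.55 (adjusted p = 0.941). In each of these 5 genes the groups overlapped and the test was not passed. Among nephron transcription factors, 4 of 30 were higher and 3 lower, with 0 called higher without silk 1 or LN/PC 3 and 6 without LN/PC 2. The lower count was 1 without silk 3 or LN/PC 3 and after rescaling to equal totals, and 5 without LN/PC 2. EHF, an epithelial factor of the ETS family, was higher at 91.8, 25.1 and 68.8 on silk and 14.2, 14.1 and 2.8 on LN/PC (log2 2.54 ± 0.65, adjusted p = 0.0218), a call lost without silk 1, silk 3 or LN/PC 3 (adjusted p 0.0712 to 0.103). ESRRG, an estrogen-related receptor of metabolic genes, was lower at 317, 299 and 259 on silk and 741, 509 and 663 on LN/PC (adjusted p = 0.00159). PAX8, also a nephron factor, gave 0.30 ± 0.18 (adjusted p = 0.274). Of 30 drug metabolism genes, 3 were higher and 4 lower, and the 4 lower calls fell to 0 without silk 3 or LN/PC 3 and to 1 after either rescaling. CYP27A1, the mitochondrial sterol hydroxylase, was higher at 946, 902 and 745 on silk and 392, 363 and 339.8 on LN/PC (adjusted p = 0.000212). UGT1A6, a glucuronosyltransferase whose locus shares exons with related genes so that its reads may be split, was higher at 279, 248 and 258 on silk and 115, 93.9 and 84 on LN/PC (adjusted p = 0.0082).

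The genes of complement and the acute phase held several of the largest differences. Of 25 tested, 12 were lower on silk and 1 higher, with a median of -0.86, against 5.79% called lower and a median of 0.03 over all genes. Between 10 and 14 were called lower with 1 library left out. A2M, a broad protease inhibitor of plasma, stood at 4.49, 6 and 0.533 on silk and 369, 935 and 443 on LN/PC (158-fold lower, log2 -7.11 ± 0.68, limma adjusted p = 1.72e-05). Every LN/PC library held over 300 counts of A2M and no silk library over 7. HP, which encodes haptoglobin and has a near-identical neighbour in HPR, was at 0, 2.35 and 0 on silk and 63.5, 127 and 184 on LN/PC, with too few counts on silk for a fold. The complement C4 genes C4A (247, 348 and 216 on silk and 1577, 2106 and 1408 on LN/PC) and C4B (335, 365 and 183 on silk and 1690.1, 2353 and 1714 on LN/PC) were 6.28-fold and 6.52-fold lower (adjusted p = 2.62e-05 and 3.76e-05). These are near-identical copies between which reads can be split, so their separate values are uncertain. SUSD4, a membrane inhibitor of complement activation, was also lower, at 269, 328 and 246 on silk and 1049, 1653 and 1401 on LN/PC (4.87-fold, adjusted p = 2.91e-05). LCN2, an acute phase and tubular injury protein, did not pass the test (log2 -1.86 ± 0.61, adjusted p = 0.0588).

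Serine protease inhibitors of clade A fell together. SERPINA1, alpha-1-antitrypsin, stood at 6645, 7374 and 3227 on silk and 36492, 43105 and 53959.9 on LN/PC (7.74-fold lower, adjusted p = 5.61e-05). SERPINA3, alpha-1-antichymotrypsin, stood at 234, 334 and 96.4 on silk and 2785, 2197 and 4858 on LN/PC (14.8-fold, adjusted p = 2.62e-05). SERPINA4, kallistatin, stood at 25.1, 25.1 and 4.77 on silk and 118, 269.6 and 215 on LN/PC (10.9-fold, adjusted p = 0.00153), and SERPINA5, the protein C inhibitor, at 191, 143 and 109.6 on silk and 502, 394 and 439 on LN/PC (3.01-fold, adjusted p = 0.000295). In all 4 the membranes did not overlap, and silk 3 was the lowest library. These genes lie in 1 cluster on chromosome 14. SELENOP, the plasma selenium carrier, was at 29.9, 60.8 and 70.5 on silk and 409, 559 and 535 on LN/PC (9.33-fold lower, adjusted p = 1.72e-05). PROS1, the anticoagulant protein S, was lower at 1027, 1100.1 and 1419 on silk and 2198, 2614 and 3121 on LN/PC (adjusted p = 0.00213). NLRP1, an inflammasome sensor, was 11.7-fold lower (17.4, 39.7 and 51.2 on silk and 414, 283 and 565 on LN/PC, adjusted p = 0.000222). DIO2, the enzyme that activates thyroid hormone, was 29.1-fold lower at low counts (9.77, 0.881 and 0.403 on silk and 34.8, 162 and 125 on LN/PC, adjusted p = 0.00149). FAM20A, a pseudokinase of the secretory pathway, was 15.5-fold lower (5.76, 18.5 and 9.1 on silk and 128, 234 and 152 on LN/PC, adjusted p = 2.91e-05).

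**Figure D2:**
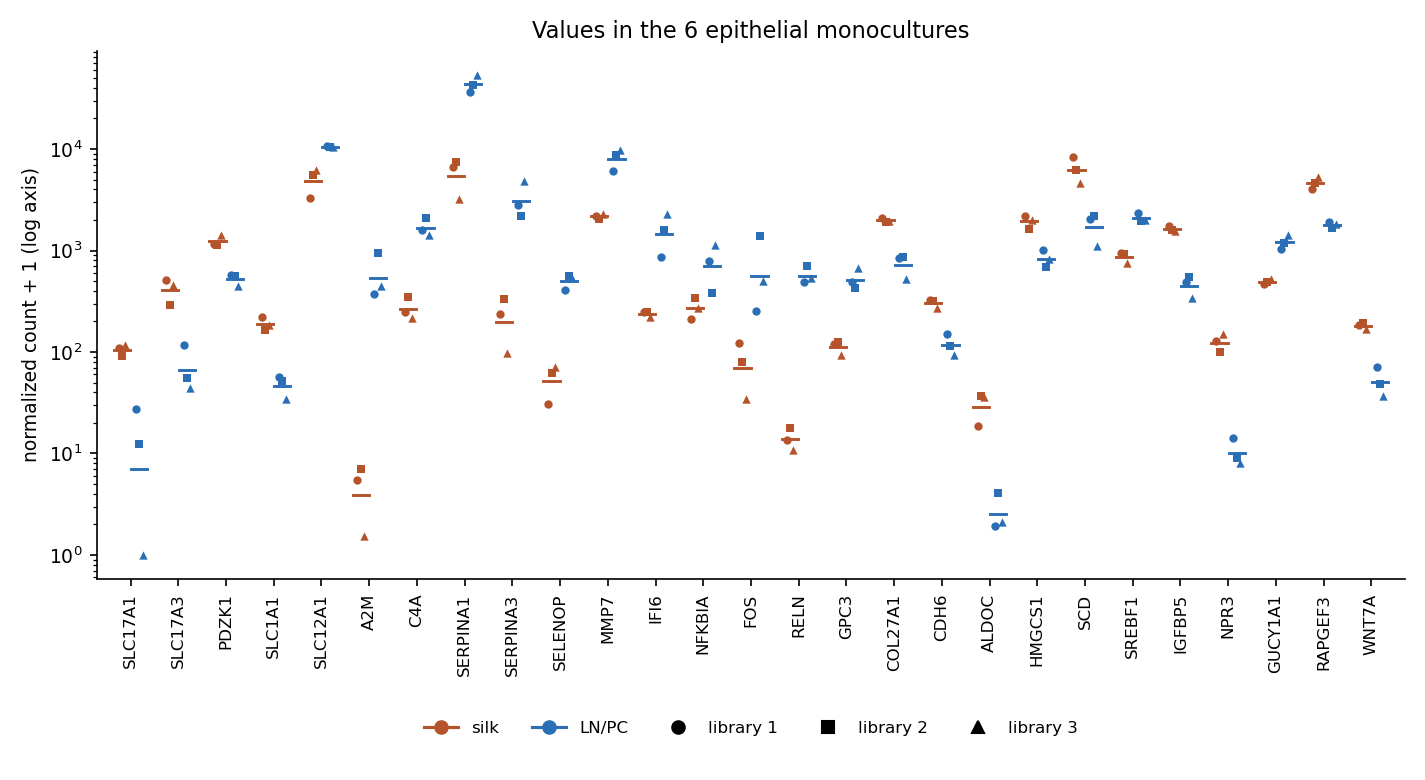
Normalized counts + 1 (log axis) of named genes in each of the 3 silk (orange) and 3 LN/PC (blue) monocultures, with point shapes for libraries 1, 2 and 3 and a bar at the mean of the log values of each group. All 6 points are shown for every gene, and LN/PC 3 lists SLC17A1 at 0.

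Interferon-induced genes were lower on silk as a group. Of 51 tested, 27 were lower and none higher (37 and 0 at an unadjusted p under 0.05), against 5.79% lower over all genes, with a median of -0.68. In 29 every silk library lay below every LN/PC library, against 26.4% not overlapping over all genes in either direction. The count of lower genes was 11 without LN/PC 3 and 19 to 32 without any other single library, the highest without LN/PC 2. IFI6, an interferon-induced inhibitor of viral replication and cell death, stood at 245, 246 and 219 on silk and 864, 1581 and 2284 on LN/PC (6.66-fold lower, log2 -2.62 ± 0.28, adjusted p = 3.62e-05). OAS2, a sensor of double-stranded RNA, was near the floor on silk, at 3.35, 1.59 and 0.724 on silk and 42.8, 44.1 and 69.9 on LN/PC (27.7-fold, adjusted p = 3.67e-05), and OAS1, of the same cluster on chromosome 12, was 4.33-fold lower (adjusted p = 0.0023). MX1, an antiviral GTPase, was lower at 68.2, 99.8 and 50.9 on silk and 368, 97 and 653 on LN/PC (adjusted p = 0.0154), but LN/PC 2 lay among the silk libraries and the call was lost without silk 3, LN/PC 1 or LN/PC 3 (adjusted p 0.0611 to 0.0782). LN/PC 3 was the highest library for IFI6, OAS1, OAS2 and MX1.

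The promoters of these genes are shown because so many members moved together. Among the 27 lower members, 20 had a promoter in the RefSeq table of GRCh38.p14 (windows from 250 bases before to 50 after the transcript start). The letters of the interferon-stimulated response element, GAAANNGAAA, on either strand, occurred in a window of 15 of the 20 (75%), against 3.94% of the 10919 tested genes with a window (2.89% of all 15968 windows) and 5.65% of the 620 other genes called lower. Letters of this kind are a description and not a test of binding. All members were listed as interferon-induced genes, so these letters may be common in the list whether or not a gene is lower. Their share among members not called was not counted. For IFI6 (minus strand, chr1:27672193-27672442), IFITM1, a membrane protein that blocks virus entry (plus strand, chr11:313790-314039), and IFI44L, an antiviral interferon-induced gene (plus strand, chr1:78620198-78620447), the 250 bases upstream of the start are given 5′ to 3′ with each match in capitals. The first bases of the matches lie at -156, -115 and -93 in IFI6, at -40 in IFITM1 and at -164 and -73 in IFI44L.
IFI6: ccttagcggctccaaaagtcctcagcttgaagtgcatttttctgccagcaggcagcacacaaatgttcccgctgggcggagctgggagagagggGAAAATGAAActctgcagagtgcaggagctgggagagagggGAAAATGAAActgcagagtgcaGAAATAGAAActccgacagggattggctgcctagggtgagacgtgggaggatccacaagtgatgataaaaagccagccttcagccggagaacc
IFITM1: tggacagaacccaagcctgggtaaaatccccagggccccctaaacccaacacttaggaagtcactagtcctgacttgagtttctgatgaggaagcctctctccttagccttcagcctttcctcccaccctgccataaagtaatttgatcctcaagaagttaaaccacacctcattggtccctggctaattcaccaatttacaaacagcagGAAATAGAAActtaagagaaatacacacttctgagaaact
IFI44L: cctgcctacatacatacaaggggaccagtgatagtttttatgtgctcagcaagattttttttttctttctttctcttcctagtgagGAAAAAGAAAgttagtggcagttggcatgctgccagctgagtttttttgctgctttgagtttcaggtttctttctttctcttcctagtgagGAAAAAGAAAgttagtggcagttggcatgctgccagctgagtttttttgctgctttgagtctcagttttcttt
IFITM1 stood at 1045, 1147 and 745 on silk and 2617, 2263 and 3351 on LN/PC (2.8-fold lower, adjusted p = 0.000238) and IFI44L at 282, 317 and 484 on silk and 844, 771 and 1254 on LN/PC (2.65-fold lower, adjusted p = 0.00372), with no overlap between the membranes in either gene. IFITM1 and IFI44L were picked for display after their values were seen. The same window of STAT2, IRF1, IRF9, OAS1 and IFI35, which were also lower, did not hold these letters.

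Genes of NF-kB signalling differed with less agreement between libraries. Of 36 tested, 9 were lower and 1 higher, against 5.79% and 5.88% over all genes (median -0.68). The lower count was 20 without LN/PC 2, 3 without LN/PC 1 or LN/PC 3 and 4 without silk 3. NFKBIA, the inhibitor that NF-kB induces, stood at 212, 342 and 272 on silk and 794, 379 and 1141 on LN/PC (2.8-fold lower, adjusted p = 0.00923). NFKB1, a subunit of the factor itself, stood at 331, 459 and 428 on silk and 1445, 458 and 1787 on LN/PC (log2 -1.39 ± 0.36, adjusted p = 0.0232), and TNFAIP3, a feedback inhibitor, at 79.6, 128 and 69.9 on silk and 470.3, 114 and 875 on LN/PC (5.26-fold lower, adjusted p = 0.0193). For both, LN/PC 2 was within the silk range, and the call was lost without silk 1, silk 3, LN/PC 1 or LN/PC 3 (adjusted p 0.0539 to 0.117 for NFKB1 and 0.0576 to 0.0964 for TNFAIP3). IL33, a nuclear alarmin, was 38.2-fold lower (2.53, 0.979 and 0.744 on silk and 38.7, 75.3 and 48.6 on LN/PC, adjusted p = 0.000101), and IL1R1, the interleukin-1 receptor, 2.11-fold lower (228, 239 and 170.2 on silk and 521, 424 and 398 on LN/PC, adjusted p = 0.00372). Those 2 genes had LN/PC 2 above all silk libraries. VCAM1, an adhesion molecule of inflamed tubules, did not pass the test (2.64, 29.2 and 16 on silk and 27.2, 2.74 and 109 on LN/PC, adjusted p = 0.571). Of 28 genes of antigen presentation 2 were higher and 5 lower (median -0.39; 1 lower without LN/PC 3 and 12 without LN/PC 2), among the lower ones HLA-DMA, a chaperone of class II molecules, at 82.4, 86.8 and 85.4 on silk and 148, 261 and 282 on LN/PC (adjusted p = 0.00309).

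Immediate early genes, which respond within minutes to growth factors and to handling, were lower for FOS, JUNB and EGR genes. Of 34 tested, 6 were lower and 2 higher, with a median of -0.11, and the lower count ran from 4 to 8 with 1 library left out. FOS stood at 122, 79.2 and 33.2 on silk and 253, 1376 and 495 on LN/PC (9.07-fold lower, adjusted p = 0.00203) and EGR2 at 7.05, 8.9 and 4.77 on silk and 38.2, 168 and 64.1 on LN/PC (13.1-fold, adjusted p = 0.000835). EGR3 stood at 5.17, 4.36 and 0.806 on silk and 29, 237 and 27.4 on LN/PC (28.4-fold, adjusted p = 0.00269) and JUNB at 294, 214 and 119 on silk and 412, 1283 and 561 on LN/PC (3.6-fold, adjusted p = 0.00972). For all 4, LN/PC 2 was the highest of the 6 libraries. EGR1 was at 1081, 346 and 289 on silk and 919.9, 3883 and 1239.8 on LN/PC (adjusted p = 0.0308), and its log2 difference of -1.78 was -1.16 without LN/PC 2, where the call was lost, as it was without silk 2, silk 3 or LN/PC 3 (adjusted p 0.0516 to 0.117). DUSP4, a phosphatase that switches off MAP kinases, was higher on silk (489, 423 and 377 on silk and 276, 205 and 129 on LN/PC, adjusted p = 0.00601).

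**Figure D3:**
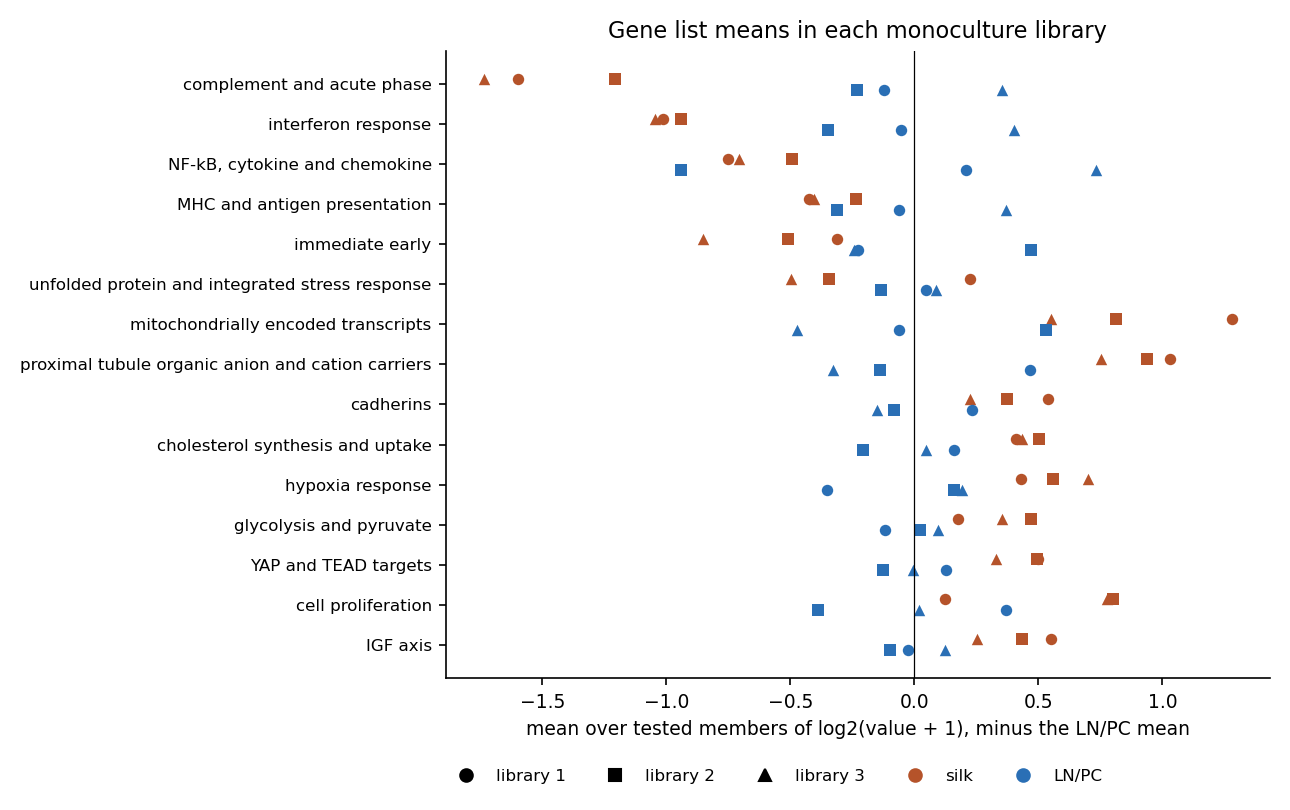
Mean over the tested members of gene lists in each monoculture library, as log2(value + 1) minus the mean of the 3 LN/PC libraries (horizontal axis), with silk in orange, LN/PC in blue and shapes for libraries 1 to 3. For NF-kB genes LN/PC 2 lies at -0.94 and the silk libraries at -0.75, -0.49 and -0.71, while for complement and interferon genes all 3 silk libraries lie below all 3 LN/PC libraries.

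Matrix genes were called in both directions. Of 30 basement membrane genes 4 were higher and 3 lower (median 0.11; the lower count was 1 without silk 3, LN/PC 1 or LN/PC 3 and 6 without LN/PC 2), and of 23 other collagen genes 6 were higher and 4 lower (median 0.11; 3 higher without LN/PC 3 and 2 lower without silk 2). Of those 23, 3 were under 10 in all 6 monocultures, with COL5A3 and COL3A1 at 0. HMCN1, hemicentin of the basement membrane, stood at 1450.2, 909 and 563 on silk and 199, 347 and 58.7 on LN/PC (4.83-fold higher, adjusted p = 0.00451). COL4A3, a collagen IV chain of specialised renal basement membranes, was 1.81-fold higher (1513, 1671 and 1820.1 on silk and 1084, 822 and 861 on LN/PC, adjusted p = 0.00972). The fibrillar COL27A1 (2067, 1907 and 1966 on silk and 839, 869 and 525 on LN/PC, adjusted p = 0.000895) and COL11A1 (625, 569 and 609 on silk and 289.7, 389.9 and 349 on LN/PC, adjusted p = 0.00548) and the beaded-filament-like COL28A1 (129.6, 109 and 141 on silk and 44, 70.4 and 48.9 on LN/PC, adjusted p = 0.0132) were higher as well. Their 3 silk values lay close together and above LN/PC. In the other direction, COL21A1, which belongs to the fibril-associated collagens, stood at 3.37, 10.5 and 5.88 on silk and 160.1, 380.2 and 311 on LN/PC (43.2-fold lower, adjusted p = 1.98e-05) and COL9A2, of the same class, at 24.8, 14.4 and 19.5 on silk and 158, 363 and 178 on LN/PC (11.9-fold, adjusted p = 2.91e-05). LAMB3, the beta chain of laminin-332, was lower at 199, 212 and 139.9 on silk and 814, 282 and 1658 on LN/PC (5-fold, adjusted p = 0.00864), with a wide spread on LN/PC. LAMB1, the beta chain of other laminins, did not pass (log2 -0.62 ± 0.24, adjusted p = 0.097), nor did fibronectin, FN1 (6678, 12132 and 11241 on silk and 6956, 3185 and 7683 on LN/PC, adjusted p = 0.123). COL1A1, the main interstitial collagen, was low and overlapped between the groups (30.1, 36.2 and 8.3 on silk and 26.3, 36.7 and 0.715 on LN/PC, adjusted p = 0.559).

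Among secreted matrix and matricellular proteins, 5 of 43 were higher and 3 lower (3 higher without silk 2 or silk 3, 5 lower without LN/PC 2). Of the 44 listed members that were measured, 12 were under 10 in all 6 monocultures, with POSTN, LOXL4, MFAP4 and HAS2 at 0. RELN, reelin, a large matrix protein with protease activity, stood at 12.6, 16.6 and 9.82 on silk and 485, 696 and 534 on LN/PC (43.9-fold lower, adjusted p = 5.34e-06), and its highest silk library, at 16.6, was far below its lowest LN/PC library, at 485. THBS1, thrombospondin, an activator of latent TGF-beta, was higher at 5332, 4586 and 4224 on silk and 2729, 1057 and 2001 on LN/PC (adjusted p = 0.0113), as was MATN3, matrilin-3 (150.1, 152 and 136 on silk and 47.3, 51.2 and 34.8 on LN/PC, adjusted p = 0.00311). Of 32 integrins and other matrix receptors, 7 were higher and 5 lower (median -0.15; 4 higher without LN/PC 3, and 10 lower without LN/PC 2 or 3 without LN/PC 3). ITGB3, the beta chain of the vitronectin receptor, was 1.88-fold higher (4226, 3285 and 2979.8 on silk and 2214, 1618 and 1749.6 on LN/PC, adjusted p = 0.00239). ITGB2, a leukocyte integrin chain, was 2.08-fold lower (277, 318 and 204 on silk and 469.9, 502 and 687 on LN/PC, adjusted p = 0.00689). ITGB1, the common beta chain of laminin and collagen receptors, did not pass (14817, 17213 and 23125 on silk and 35008, 16133 and 46456 on LN/PC, adjusted p = 0.176), and neither did ITGB6, the chain of the epithelial integrin that activates TGF-beta (log2 -0.35 ± 0.15, adjusted p = 0.127). The glypicans, heparan sulfate proteoglycans of the cell surface, went both ways. GPC3 stood at 119, 126 and 92.2 on silk and 486, 426 and 666 on LN/PC (4.68-fold lower, adjusted p = 2.62e-05) and GPC1 at 732, 780.2 and 574 on silk and 1382, 1171 and 1573 on LN/PC (1.98-fold lower, adjusted p = 0.00235). GPC6 stood at 467, 265 and 271 on silk and 117, 141 and 94.7 on LN/PC (2.84-fold higher, adjusted p = 0.00126).

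Proteases and their inhibitors differed in the same split way. Of 30 metalloproteinases and inhibitors, 4 were higher and 4 lower (1 higher without silk 1, 7 lower without LN/PC 2). MMP7, matrilysin, a secreted protease of injured tubules, stood at 2182, 2051 and 2311 on silk and 6041, 8729 and 9721 on LN/PC (3.74-fold lower, adjusted p = 2.11e-05). The inhibitor TIMP1 was lower as well, at 1765, 1455 and 905 on silk and 2803, 7028 and 4019 on LN/PC (3.36-fold, adjusted p = 0.00154). ADAM12, a membrane sheddase, was higher at 274, 297 and 192 on silk and 92, 74.8 and 71.3 on LN/PC (3.21-fold, adjusted p = 0.000116). Of 20 genes of plasminogen activation and clotting 4 were higher and 5 lower, 3 of the lower ones being clade A serpins given above. F2R, the thrombin receptor, was 2.24-fold higher (735, 462 and 474 on silk and 262, 285 and 198 on LN/PC, adjusted p = 0.00267). Every silk library lay above every LN/PC library for F2R.

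Cadherins were called higher more often than lower. Of 15 tested, 5 were higher and 2 lower, against 5.88% and 5.79% over all genes, with a median of 0.71. With 1 library left out 4 or 5 were higher, and the lower count was 0 without silk 2, silk 3 or LN/PC 3. CDH6, a cadherin of the developing and injured proximal tubule, stood at 327, 314 and 273 on silk and 149, 113 and 92.7 on LN/PC (2.58-fold, adjusted p = 0.000641). PCDH20, a protocadherin, was 3.51-fold higher (871, 449 and 497 on silk and 171, 215 and 132 on LN/PC, adjusted p = 0.000287) and CDHR1, a cadherin-related protein, 4.45-fold higher (283, 121 and 166 on silk and 66.9, 36.5 and 24.7 on LN/PC, adjusted p = 0.00379). CDH1, E-cadherin, was higher at 86.6, 73.1 and 82.6 on silk and 46.3, 36.9 and 26.5 on LN/PC (adjusted p = 0.0136), a call lost without LN/PC 3 (log2 0.95, adjusted p = 0.0616). CDH16, kidney-specific cadherin, was lower at 8711, 7687 and 5576 on silk and 11187, 10751 and 11461 on LN/PC (adjusted p = 0.0469), a call lost without silk 2, silk 3, LN/PC 1 or LN/PC 3 (adjusted p 0.0832 to 0.159). CDH2, N-cadherin, the main cadherin of the proximal tubule, did not pass (1194, 1256 and 1097 on silk and 1613, 1310.0 and 1499 on LN/PC, adjusted p = 0.203).

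Of 29 genes of tight junctions and polarity, 4 were higher and 1 lower (1 higher without silk 1 or LN/PC 3, 4 lower without LN/PC 2). CLDN16, a claudin that passes magnesium and calcium in the thick ascending limb, stood at 1909.6, 1192 and 1532 on silk and 547, 508 and 613 on LN/PC (2.78-fold higher, adjusted p = 0.000251). CLDN2, the claudin that makes the proximal tubule leaky to sodium and water, was at 822, 822 and 696 on silk and 602, 337 and 452 on LN/PC (adjusted p = 0.0185), a call lost without silk 1, silk 2 or LN/PC 3 (adjusted p 0.0542 to 0.0618). LLGL2, a basolateral polarity protein, was lower (945, 1107 and 912 on silk and 1609.7, 1858 and 1614 on LN/PC, adjusted p = 0.00207). TJP1, ZO-1, did not pass (log2 -0.29 ± 0.16, adjusted p = 0.237). Of 12 keratins and other filament genes 1 was higher and 2 lower. KRT80 stood at 293, 316 and 302 on silk and 138, 92.8 and 104 on LN/PC (2.72-fold higher, adjusted p = 0.000521) and KRT8, a keratin of simple epithelia, at 4874, 6721 and 5666 on silk and 10279.7, 8662 and 11954 on LN/PC (1.79-fold lower, adjusted p = 0.00947). Its partner KRT18 gave a log2 difference of -0.32 ± 0.13 (adjusted p = 0.13), KRT7 of 1.29 ± 0.41 (adjusted p = 0.0544) and VIM, vimentin, of 0.51 ± 0.24 (adjusted p = 0.18), none of which passed.

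The YAP and TEAD list holds targets and components of a pathway that responds to cell shape and stiffness. Of 29 tested, 8 were higher and 1 lower, against 5.88% and 5.79% over all genes, with a median of 0.44. The lower gene was YAP1 itself (log2 -0.45). The lower count was 0 after either rescaling and without any 1 silk library, LN/PC 1 or LN/PC 3, and it was 3 without LN/PC 2. Without silk 1 or silk 2, 4 were higher. AJUBA, a LIM protein of cell junctions, stood at 2003, 1094 and 1308 on silk and 708, 548 and 736 on LN/PC (adjusted p = 0.00399) and NUAK2, a kinase that acts on actomyosin, at 442, 299 and 203 on silk and 113, 122 and 83.6 on LN/PC (adjusted p = 0.00343). The most used reporters of this pathway did not pass: CCN1 gave 0.11 ± 0.22 (adjusted p = 0.777) and CCN2 0.35 ± 0.26 (adjusted p = 0.399).

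**Figure D4:**
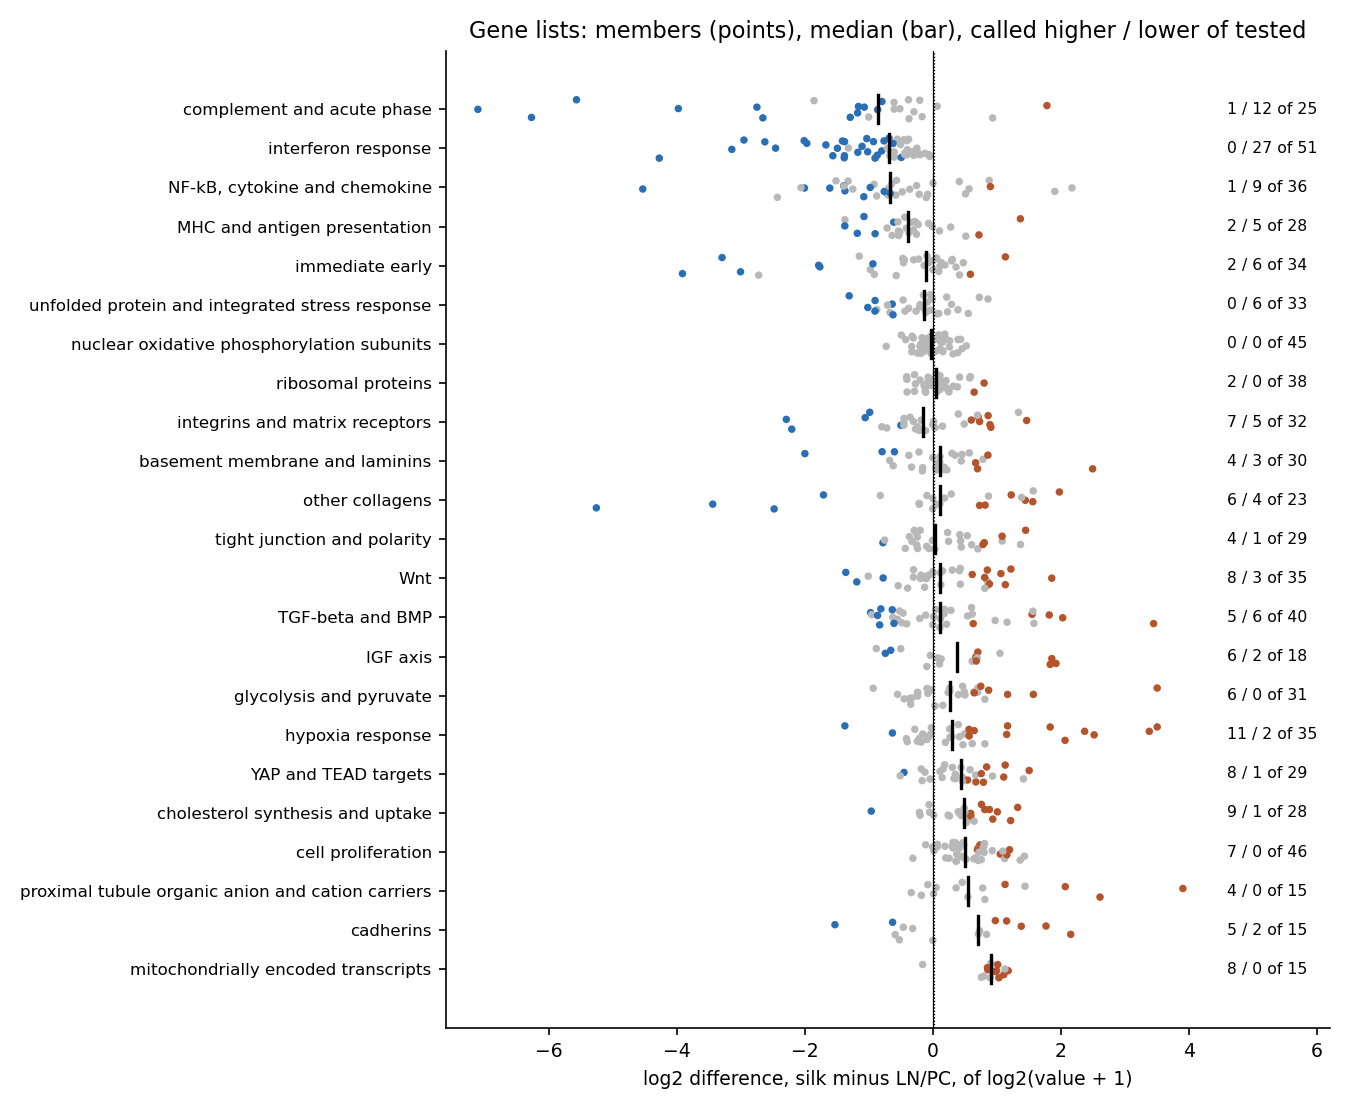
Log2 difference between silk and LN/PC monocultures (horizontal axis) of every tested member of gene lists, orange where called higher, blue where called lower and grey otherwise, with the list's median as a bar and the counts called higher and lower of those tested at the right. The dotted line is the median of all tested genes, 0.03; complement (median -0.86) and interferon genes (median -0.68) lie to its left and mitochondrially encoded transcripts (median 0.91) to its right.

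Hypoxia-response genes were higher in 11 of 35 cases and lower in 2, against 5.88% and 5.79% over all genes. The median was 0.30 (7 higher without silk 2 or silk 3, 0 lower without silk 1 or LN/PC 3). ANGPTL4, an inhibitor of lipoprotein lipase, stood at 96.9, 248 and 348 on silk and 21.9, 28.3 and 66.1 on LN/PC (5.96-fold, adjusted p = 0.000958). CA12, a carbonic anhydrase of the basolateral membrane, stood at 202, 211 and 141 on silk and 40.1, 64.1 and 30.2 on LN/PC (4.12-fold, adjusted p = 0.000147). STC2, stanniocalcin 2, a secreted glycoprotein, was 3.39-fold higher (188, 180.0 and 178 on silk and 64.3, 29.3 and 67.3 on LN/PC, adjusted p = 0.000307). Each of the 3 had all silk libraries above all LN/PC libraries. CA9, the carbonic anhydrase most used as a hypoxia marker, was at 110.1, 73.9 and 108 on silk and 0, 55 and 13.4 on LN/PC (log2 3.38 ± 0.91, adjusted p = 0.0261). Its difference was 1.77 without LN/PC 1, where it is listed at 0, and the call was lost without any 1 of the silk libraries (adjusted p 0.0535 to 0.0723). PPFIA4, a liprin, was 4.86-fold higher (784, 662 and 875 on silk and 85.5, 225 and 167 on LN/PC, adjusted p = 0.000114). SLC2A1, the glucose carrier GLUT1, which is also a hypoxia target, did not pass (3705, 4062 and 3869 on silk and 4069, 4220.3 and 5579 on LN/PC, adjusted p = 0.428). Of the 11 higher members 9 held the core letters of the hypoxia response element, ACGTG, on either strand of a promoter window, against 32.1% of tested genes. The share among members not called was not counted.

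Of 31 genes of glycolysis and pyruvate use, 6 were higher and none lower (10 and 2 at an unadjusted p under 0.05, median 0.26), and 4 to 8 were higher with 1 library left out. PGK1, phosphoglycerate kinase, stood at 19237, 15183 and 18669 on silk and 5391, 10444 and 8532 on LN/PC (2.18-fold, adjusted p = 0.00577). ENO2, the neuronal form of enolase, was 2.96-fold higher (1172, 1241 and 1129 on silk and 342, 396 and 459 on LN/PC, adjusted p = 1.72e-05). ALDOC, the brain form of aldolase, was 17.2-fold higher at low counts (17.5, 36 and 34.7 on silk and 0.915, 3.09 and 1.13 on LN/PC, adjusted p = 0.000115). PDK3, a kinase that closes the entry of pyruvate to the mitochondrion, was 1.82-fold higher (619, 586 and 582 on silk and 293, 377 and 310.0 on LN/PC, adjusted p = 0.00384). The gene PC, for pyruvate carboxylase, the first enzyme of gluconeogenesis from pyruvate, was lower at 171, 162 and 158 on silk and 350.4, 405 and 761 on LN/PC (3.08-fold, adjusted p = 0.00388). TXNIP, a glucose-induced inhibitor of glucose uptake, did not pass (log2 -0.37 ± 0.24, adjusted p = 0.315).

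Of 28 genes of cholesterol synthesis and uptake, 9 were higher and 1 lower, with a median of 0.49, against 5.88% called higher over all genes. In 18 all silk libraries lay above all LN/PC libraries and in 1 below, against 26.4% not overlapping over all genes in either direction. The higher count was 5 without silk 3, and it was 15 after either rescaling. HMGCS1, which makes HMG-CoA, stood at 2196, 1633 and 2016 on silk and 1018, 694 and 815 on LN/PC (2.31-fold, adjusted p = 0.00159). ACAT2, which makes its precursor acetoacetyl-CoA, stood at 574, 654 and 568 on silk and 239, 201 and 279.9 on LN/PC (2.5-fold, adjusted p = 0.00195). MSMO1, the sterol methyl oxidase (1210.1, 1214 and 1306 on silk and 743, 652 and 628 on LN/PC, adjusted p = 0.000521), and SC5D, the sterol desaturase (569.9, 604 and 850.0 on silk and 397, 351 and 298 on LN/PC, adjusted p = 0.00388), are late steps of the pathway and were higher by smaller folds. In these 4 genes the membranes did not overlap.

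The letters CCAAT are those of the site of NF-Y, a factor that assists sterol regulation, and promoters of 2 enzymes of the group are shown with them. RefSeq promoters were matched for 6 of the 9 higher members. CCAAT, on either strand, occurred in a window of each of the 6, against 43.4% of tested genes and 36.9% of the other genes called higher. The letters TCACNCCAC of a sterol regulatory element occurred in none of the 6, against 1.46%. Neither share was counted among members not called. The 250 bases upstream of HMGCS1 (minus strand, chr5:43313413-43313662) and MSMO1 (plus strand, chr4:165327419-165327668) are given in GRCh38.p14 from RefSeq with the matches in capitals.
HMGCS1: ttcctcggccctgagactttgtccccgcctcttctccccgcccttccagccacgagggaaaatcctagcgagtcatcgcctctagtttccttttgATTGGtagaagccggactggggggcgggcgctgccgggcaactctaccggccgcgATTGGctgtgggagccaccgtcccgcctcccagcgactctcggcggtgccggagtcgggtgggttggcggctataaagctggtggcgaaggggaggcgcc
MSMO1: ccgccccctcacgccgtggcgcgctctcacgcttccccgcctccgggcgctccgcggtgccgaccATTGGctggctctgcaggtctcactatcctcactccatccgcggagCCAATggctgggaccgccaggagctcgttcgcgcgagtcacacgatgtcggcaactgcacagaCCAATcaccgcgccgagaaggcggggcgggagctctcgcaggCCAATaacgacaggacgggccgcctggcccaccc
HMGCS1 has 2 matches, both on the strand opposite to the gene, and MSMO1 has 4.

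Fatty acid genes were divided. Of 25 genes of synthesis and desaturation, 5 were higher and 2 lower (3 higher without silk 2 or LN/PC 3). SCD, the delta-9 desaturase, stood at 8401, 6205 and 4678 on silk and 2064, 2172 and 1111 on LN/PC (3.61-fold higher, adjusted p = 0.000377). FADS2, the delta-6 desaturase, was 2.11-fold higher (3392, 3930.4 and 3156 on silk and 2204, 1287 and 1485 on LN/PC, adjusted p = 0.00143), and ME1, malic enzyme, a source of NADPH, 2.91-fold higher (425, 273 and 281 on silk and 136, 104 and 97 on LN/PC, adjusted p = 0.000895). SREBF1, the transcription factor of lipid synthesis, went the other way, at 943, 926 and 756 on silk and 2342, 1935 and 1996 on LN/PC (2.39-fold lower, adjusted p = 0.000257), as did G0S2, an inhibitor of fat breakdown (33.4, 21.8 and 14.3 on silk and 55.3, 104 and 107 on LN/PC, adjusted p = 0.00321). Of 38 genes of fatty acid oxidation 3 were higher and 2 lower, near the shares over all genes, and 6 and 8 were called without LN/PC 2. NQO1, a quinone reductase induced by NRF2, was 1.92-fold higher (4508, 3478 and 4021 on silk and 2069, 1992 and 2189 on LN/PC, adjusted p = 0.00113), 1 of 3 higher among 21 NRF2 genes, with none lower (7 and 0 at an unadjusted p under 0.05, median 0.38).

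Subunits of the respiratory chain are encoded both in the mitochondrion and in the nucleus. Of 15 mitochondrially encoded transcripts, 8 were higher and none lower (14 and 0 at an unadjusted p under 0.05, median 0.91). Of 45 nuclear subunits of oxidative phosphorylation none was called by limma, 3 higher and 3 lower having an unadjusted p under 0.05 (median -0.03, which turned to 0.04 and 0.08 after the rescalings), and without LN/PC 2 there were 3 higher and 6 lower. The mitochondrial count was 0 without silk 1 or LN/PC 3, 1 without LN/PC 1, 4 without silk 2, 10 without silk 3 and 14 without LN/PC 2. MT-CO1, a subunit of cytochrome oxidase, stood at 153122, 104223 and 80632 on silk and 47073, 72987 and 32351 on LN/PC (adjusted p = 0.0475) and MT-CO2 at 29819.7, 19668 and 18014 on silk and 9433, 15604 and 7148 on LN/PC (adjusted p = 0.0199). Every silk library lay above every LN/PC library in both, but the calls were lost without silk 1, LN/PC 1 or LN/PC 3 and, for MT-CO1, also without silk 2 (adjusted p 0.0622 to 0.175).

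Genes of the unfolded protein and integrated stress responses, taken as 1 list, were lower in 6 of 33 cases and higher in none (10 and 2 at an unadjusted p under 0.05, median -0.14). The 6 included PHGDH (log2 -1.31) and CEBPB (-0.90), which are not chaperones of the endoplasmic reticulum. Over all genes 5.79% were lower. The lower count of the list was 0 without LN/PC 3 and 1 without silk 3. HSPA5, the main chaperone of the endoplasmic reticulum, stood at 9329.6, 8421 and 7122 on silk and 15770.2, 12059 and 19177 on LN/PC (adjusted p = 0.0158) and HYOU1, its cochaperone, at 1583, 1684 and 1663 on silk and 4203, 2082 and 4181 on LN/PC (adjusted p = 0.0113). Silk was below LN/PC in all libraries, yet HSPA5 lost its call without silk 3 or LN/PC 3 (adjusted p 0.0602 to 0.0670) and HYOU1 without LN/PC 1 or LN/PC 3 (adjusted p 0.0523 to 0.0577).

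Receptors and modulators of secreted signals differed in several pathways. Of 18 genes of the insulin-like growth factor axis, 6 were higher and 2 lower (median 0.37), against 5.88% and 5.79% over all genes. There were 4 to 8 higher when 1 library was left out and 0 lower without any 1 silk library or LN/PC 3. IGFBP5, a binding protein that tethers IGF to the matrix, stood at 1757, 1576 and 1566 on silk and 484, 552 and 339 on LN/PC (3.56-fold higher, adjusted p = 1.72e-05), and IGFBP4 was 4.16-fold higher (72, 58.7 and 34.1 on silk and 15.7, 11.9 and 12 on LN/PC, adjusted p = 0.00286). The silk values of IGFBP5 lay between 1566 and 1757, all above LN/PC. Of 35 Wnt genes 8 were higher and 3 lower (median 0.12), against the same 5.88% and 5.79%. There were 3 higher without silk 1, silk 2 or LN/PC 3 and 1 lower without silk 3, LN/PC 1 or LN/PC 3. The ligand WNT7A stood at 185, 192 and 168 on silk and 70.3, 47 and 36.1 on LN/PC (3.55-fold, adjusted p = 0.00116), the secreted antagonist SFRP1 at 2371, 1452 and 1504 on silk and 949, 743 and 695 on LN/PC (2.23-fold, adjusted p = 0.00121). LEF1, a nuclear partner of beta-catenin, was 2.53-fold lower (265, 274 and 153 on silk and 458, 585 and 708 on LN/PC, adjusted p = 0.003). Of 40 TGF-beta and BMP genes 5 were higher and 6 lower (the lower count was 2 without LN/PC 3, 3 without silk 2, silk 3 or LN/PC 1 and 10 without LN/PC 2). TGFBR2, the ligand-binding receptor, was lower (2986, 2825 and 3200.2 on silk and 5839.7, 4499 and 6176 on LN/PC, adjusted p = 0.00207), and so was SMAD7, its feedback inhibitor (319, 310.0 and 277 on silk and 642, 462 and 522 on LN/PC, adjusted p = 0.00557).

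Of 19 natriuretic peptide and vasoactive genes 4 were higher and 4 lower (median 0.41; 2 lower without silk 3, LN/PC 1 or LN/PC 3). NPR3, the receptor that clears natriuretic peptides, stood at 127, 98.5 and 148 on silk and 13.3, 8.01 and 6.97 on LN/PC (13.2-fold higher, log2 3.62 ± 0.37, adjusted p = 2.81e-05). GUCY1A1 (468, 487 and 529 on silk and 1040.4, 1188 and 1408 on LN/PC, adjusted p = 0.00166) and GUCY1B1 (516, 534 and 557 on silk and 889, 925 and 974 on LN/PC, adjusted p = 0.00211), neighbours on chromosome 4, encode the 2 chains of the nitric oxide receptor guanylate cyclase and were lower by 2.45-fold and 1.73-fold. RAPGEF3, the cyclic AMP sensor EPAC1, stood at 4045, 4672 and 5292 on silk and 1909, 1658 and 1823 on LN/PC (2.6-fold higher, adjusted p = 2.62e-05). Each of these 4 genes had groups that did not overlap. CALCRL, the receptor of adrenomedullin and CGRP, was higher, with silk 3 far above the rest (797, 748 and 1699.5 on silk and 453, 444 and 331 on LN/PC, adjusted p = 0.00405). EDN2, a vasoconstrictor peptide, was 5.17-fold higher at low counts (48.9, 38.4 and 27.8 on silk and 10, 6.63 and 5.56 on LN/PC, adjusted p = 0.00478). GFRA1, the receptor of GDNF, was 4.78-fold higher (425, 628 and 678 on silk and 148, 112 and 102 on LN/PC, adjusted p = 2.91e-05). SPNS2, which exports sphingosine-1-phosphate, stood at 1830.2, 1996 and 1866 on silk and 821, 507 and 692 on LN/PC (2.82-fold higher, adjusted p = 7.24e-05).

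Enzymes of prostaglandin and kynurenine metabolism were higher in 4 of 18 cases and lower in none (6 and 2 at an unadjusted p under 0.05, and 2 called lower without LN/PC 2). QPRT, which makes the NAD precursor nicotinate mononucleotide from quinolinate, was 4.94-fold higher (63.6, 188 and 161 on silk and 26.8, 20.5 and 36.2 on LN/PC, adjusted p = 0.00264). PTGS1, cyclooxygenase 1 (149.6, 143 and 82.5 on silk and 42.7, 64.6 and 49 on LN/PC, adjusted p = 0.00548), and PTGES, the prostaglandin E synthase (55.4, 44.8 and 43.7 on silk and 16.8, 15.6 and 18.6 on LN/PC, adjusted p = 0.00743), were 2.4-fold and 2.82-fold higher. GCNT3, a glycosyltransferase of mucin-type glycans, stood at 127, 112 and 89.1 on silk and 23, 5.62 and 14.5 on LN/PC (7.61-fold, adjusted p = 0.000271). COPG2IT1, a non-coding transcript of an imprinted locus, was 5.07-fold higher (102, 111 and 96.3 on silk and 24.5, 30.9 and 5.52 on LN/PC, adjusted p = 0.00414), and MORC4, a chromatin ATPase, 2.38-fold higher with little spread (1560.3, 1476 and 1400.2 on silk and 702, 655 and 504 on LN/PC, adjusted p = 0.000115).

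Genes of cell proliferation were higher in 7 of 46 cases and lower in none (18 and 0 at an unadjusted p under 0.05, median 0.51), against 5.88% called higher over all genes, but the count was 13 without silk 1, 2 without silk 3 and 1 without silk 2 or LN/PC 3. MKI67, the proliferation antigen Ki-67, overlapped between the groups (698, 1756 and 1178 on silk and 1138, 419 and 694 on LN/PC, log2 0.71 ± 0.31, adjusted p = 0.148). CCND3, a D cyclin, was 1.66-fold lower (1173, 1307 and 1117 on silk and 2025, 1888 and 2044 on LN/PC, adjusted p = 0.0024). Among 31 genes of tubular injury and progenitors 5 were higher and 3 lower (2 higher without silk 1, 6 lower without LN/PC 2). HAVCR1, kidney injury molecule 1, was at 402, 331 and 262 on silk and 209, 26.9 and 178 on LN/PC (log2 1.69 ± 0.52, adjusted p = 0.0462), with LN/PC 2 far below the rest. Its difference was 0.76 without LN/PC 2, where the call was lost, as it was without any 1 silk library (adjusted p 0.0518 to 0.133). SOX9, a factor of tubular repair, gave 0.06 ± 0.24 (adjusted p = 0.908). Of 42 tubular, junctional and matrix genes fixed as a panel, 35 were tested, of which 7 were higher, 1 lower and 27 not called. The EGF family (0 higher and 2 lower of 16) and Notch (1 and 1 of 16) each had 12.5% called, near the 11.7% over all genes. Shares were smaller for the primary cilium (1 and 1 of 41, 4.88%), HOX genes (1 and 1 of 30, 6.67%) and ribosomal proteins (2 and 0 of 38, 5.26%). Without LN/PC 2 there were 4 lower EGF family genes, 5 lower cilium genes, 6 higher HOX genes and 6 higher ribosomal protein genes.

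The co-cultures give a second comparison of the membranes, but not a second measure of epithelial cells alone. Its log2 differences share no library with those of the monocultures. The calls of both comparisons came from the same fit, which pooled the spread within all groups. Shares of genes called in both are therefore not shares from independent tests. Fibroblast markers took 0.986% to 1.90% of counts in co-cultures on LN/PC and 0.0649% to 0.0756% on silk. Fibroblasts alone gave 4.81% to 5.32%, so these marker shares understate the share of fibroblast RNA. In co-cultures 5214 of 14433 genes (36.1%) differed between the membranes by limma. Of the 849 genes higher in monocultures on silk, 524 (61.7%) were called higher and 39 lower in co-cultures. Of the 836 lower genes, 467 (55.9%) were called lower and 16 higher. Counting only genes whose mean in fibroblasts was under 5% of their level in the epithelial monocultures, 161 of 209 higher genes (77.0%) and 57 of 116 lower genes (49.1%) were called in the same direction, against 47.2% of all 1169 such genes called in either direction. Fibroblast RNA can lower the share of such genes in co-cultures on LN/PC, which favours calls of higher on silk. These shares therefore do not set fibroblast RNA aside, and the size of its part was not tested. C4A (-1.96), SELENOP (-3.62), NLRP1 (-4.09), GPC3 (-1.76), GCNT3 (3.39), SCD (2.46) and CDH6 (1.84) gave co-culture log2 differences in the direction of the monocultures, each called.

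**Figure D5:**
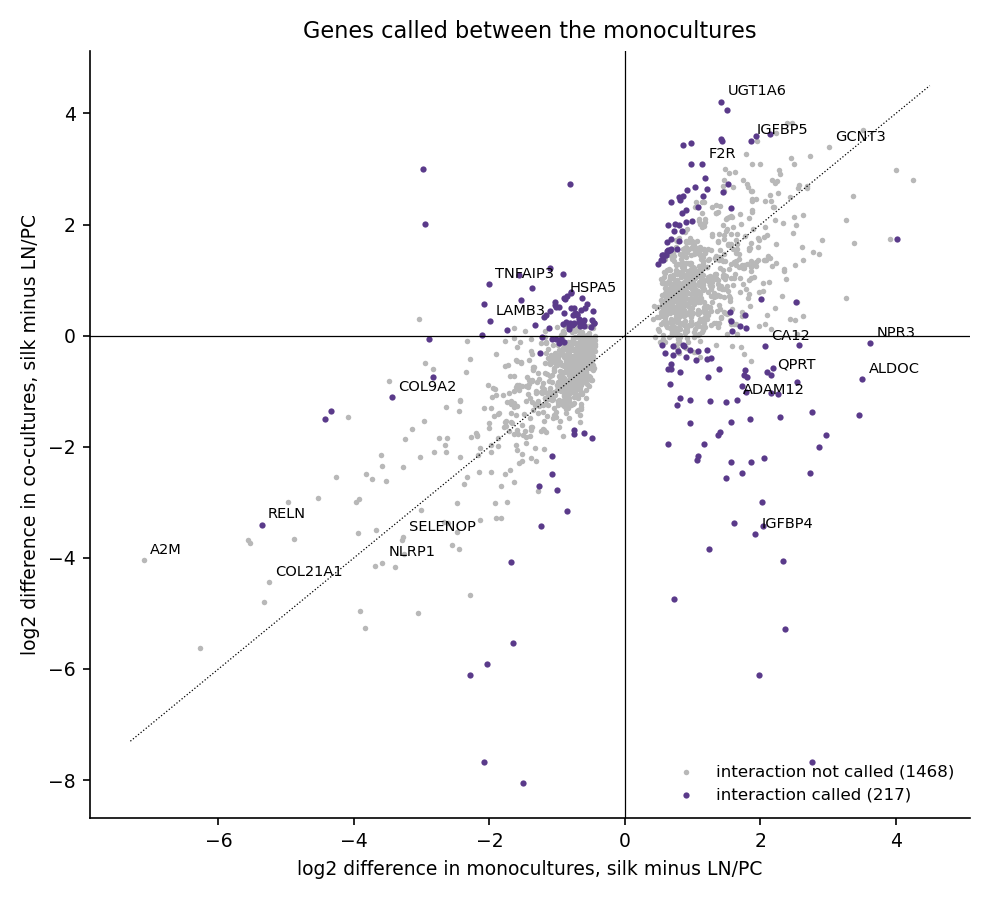
Log2 difference between silk and LN/PC in co-cultures (vertical axis) against that in monocultures (horizontal axis) for the 1685 genes called between the monocultures, purple where the membrane by culture interaction was called (217 genes). The dotted line marks equal differences, and NPR3 (3.62 in monocultures, -0.14 in co-cultures) lies far below it.

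The difference itself was tested as the interaction of membrane and culture, which was called for 1116 genes (7.73%), among them 130 of the 849 higher and 87 of the 836 lower genes. Those genes were selected by the difference in monocultures, a term of the interaction, which favours interaction calls among them. NPR3 differed by 3.62 in monocultures and -0.14 in co-cultures (interaction 3.75, adjusted p = 0.000239) and ALDOC by 3.50 and -0.78 (adjusted p = 0.000247). In the other direction, UGT1A6 was higher on silk by 1.42 in monocultures and 4.21 in co-cultures (adjusted p = 0.000534) and IGFBP5 by 1.86 and 3.51 (adjusted p = 0.000358). HSPA5, lower on silk in monocultures, was at 0.68 in co-cultures (interaction -1.58, adjusted p = 0.00363), and SLC2A1, which did not pass in monocultures, was at 2.54 there (adjusted p = 7.5e-06). The part of fibroblast RNA in these differences was not tested.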

How the data were processed

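Poly(A) RNA of 15 samples was sequenced from stranded libraries (NEBNext Ultra II Directional, NovaSeqX plus, per the labels' protocols). The deposited table holds log2 values per gene, normalized by the authors, and Salmon 1.10.3 and DESeq2 are named in the submitters' processing notes. All libraries have the same lowest value, 5.54, the form of a variance-stabilizing transformation. For the genome build and annotation, none was given in the sources used here. That transformation was inverted, under its closed form, to normalized counts, after which the median ratio of every library to the geometric mean was 1.01 to 3 digits. These are not raw reads (33.5% to 48.5% of low values in the monocultures lay within 0.1 of whole multiples of 1 read), so no count model was used, and depth in reads is unknown. Values are not per length, so levels are not compared between genes.

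Genes at 10 or more in at least 3 of the 12 epithelial libraries (14433) were tested on log2(value + 1), which understates differences of low genes, with limma 3.58.1 (R 4.3.3), with 4 group means, a mean-variance trend and Benjamini-Hochberg adjustment (called under 0.05, two-sided). All adjusted p-values are from this fit. Folds are ratios of mean normalized counts, and differences and their SE are of log2 values. The fit was tested on simulated data. Named genes were the 12 largest non-overlapping called differences in each direction (mean at least 100), the 6 smallest p in each direction (mean at least 1000), up to 6 called members of each gene list (mean at least 20) and a panel of 42 genes, a few of which are not reported here. The genes, lists and tests were chosen with earlier results of these data known. Gene lists were described by counts and medians and not tested. Alternatives were the pseudocount, filters, rescaling, the deposited log2 values, a replicate block, other sets of libraries, no trend and leaving out each library.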

Additional observations from a re-analysis of the deposited data

Results flagged for a closer look

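For 40 of the named genes the difference between the membranes itself differed between monocultures and co-cultures (limma interaction, Benjamini-Hochberg adjusted p under 0.05, 3 libraries in each of 4 groups). Over all tested genes the interaction was called for 7.73%. Many named genes were chosen by their difference in monocultures, which is a term of the interaction. That choice favours interaction calls, so the 40 cannot be read against the share over all genes. Values are the log2 difference in monocultures minus that in co-cultures. LN/PC co-cultures held 0.986% to 1.90% fibroblast marker counts against 0.0649% to 0.0756% on silk and 4.81% to 5.32% in fibroblasts alone. Fibroblast RNA was thus a larger share of the LN/PC co-cultures than these marker counts, and its part in these values was not tested.

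Among matrix, protease and fibroblast marker genes the interaction was 10.44 for PDGFRB, 9.48 for COL1A1, 5.46 for COL5A1, 4.66 for FN1, 2.81 for ADAM12, 4.05 for PRSS23, 1.98 for THBS1, 1.48 for COL11A1 and 1.15 for FBLN1. In fibroblast monocultures COL1A1 stood at 101025, 121071 and 105708 and FN1 at 497661, 587151 and 621039, against 26.3, 36.7 and 0.715 for COL1A1 and 6956, 3185 and 7683 for FN1 in LN/PC epithelial monocultures. It was negative for COL9A2 (-2.32), LAMB3 (-2.26), RELN (-1.96) and F2R (-1.94). RELN was lower on silk in both cultures, with log2 differences of -5.36 and -3.40.

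Among genes of secreted signals it was 5.49 for IGFBP4, 3.75 for NPR3, 1.47 for CCN2 and 1.1 for IL1R1, and it was -2.93 for TNFAIP3, -1.65 for IGFBP5, -1.21 for SPNS2 and -0.95 for SMAD7. TNFAIP3 was lower on silk by 5.26-fold in monocultures, and its co-culture difference was 0.93 (adjusted p = 0.163).

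Among metabolic genes it was 4.29 for ALDOC, 2.86 for QPRT, 2.63 for ME3, 2.26 for CA12, 1.91 for ANGPTL4 and 1.35 for TXNIP. It was -2.79 for UGT1A6, -2.78 for SLC2A1, -2.06 for PTGES, -0.95 for SREBF1 and -0.72 for ENO2. Among transport, brush border and junction genes it was 3.31 for AQP1, 1.66 for ANPEP, 1.35 for SLC1A1, -1.53 for SLC39A14 and -1.14 for CLDN16, and it was 3.38 for the transcription factor EHF. AQP1 and ANPEP did not pass in monocultures and differed by -3.22 and -1.18 in co-cultures (adjusted p = 0.000375 and 0.000757). The endoplasmic reticulum chaperones HSPA5 (-1.58) and HYOU1 (-1.54) were lower on silk in monocultures and in co-cultures stood at 0.68 (adjusted p = 0.0238) and 0.52 (adjusted p = 0.0873).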

How the results depend on the processing

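The 1685 genes called between the monocultures numbered 1600 to 1786 under the other pseudocounts, filters, scalings, the deposited log2 values and the fit of 9 libraries. They were 754 with the 6 monoculture libraries alone and 1037 with no mean-variance trend, and the cause was not tested. Without 1 library they ranged from 695 (without LN/PC 3) to 3208 (without LN/PC 2), the unadjusted p being under 0.05 for 4139 genes with all libraries. Of 140 named genes called, 121 (without LN/PC 3) to 139 kept their call under each alternative, fewer being tested under some filters, and none changed sign. Of 112 counts of list members called, 16 moved by over 1.5 times after upper-quartile rescaling and 40 without LN/PC 2. The co-culture count was 4676 to 5342 and the interaction count 769 to 1357.

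Silk and LN/PC libraries with the same replicate number showed no shared deviation from their group means (r of -0.096, -0.164 and 0.189). With 3 libraries in each group these values cannot exclude a pairing by number. With the number as a replicate block, 1317, 4811 and 942 genes were called in the 3 comparisons.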

Other observations

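Genes next to each other on a chromosome were called in the same direction in 14 stretches of at least 3 tested genes, 44 genes in all of 13476 placed by RefSeq order. No test was made of that number. The stretches included the clade A serpins of chromosome 14 (SERPINA1, SERPINA4, SERPINA5 and SERPINA3, with log2 differences of -3.02, -3.59, -1.61 and -3.97), OAS1, OAS3 and OAS2 on chromosome 12 (-1.97, -1.56 and -4.27), and SLC17A1, SLC17A4, SLC17A3 and TRIM38 on chromosome 6 (3.91, 2.07, 2.61 and 0.82). GUCY1A1, GUCY1B1 and CTSO on chromosome 4 were lower (-1.28, -0.79 and -1.06), and ME3, PRSS23 and FZD4 on chromosome 11 higher (1.73, 1.49 and 1.06). The serpins, the OAS genes and the SLC17A genes of these stretches are paralogs, whose reads can be shared. Single libraries decided the calls of TRIM38, ME3 and FZD4 (adjusted p 0.0522 to 0.151 without 1 of 3 or 4 libraries each) and of OAS3 (0.0546 without LN/PC 3). ME3, PRSS23, FZD4, CTSO, TRIM38 and OAS3 were chosen after their values were seen.

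Of 8 searches for letters in promoters, 4 concerned other groups. The letters GGAATG of the TEAD element were in 4 of 6 higher genes of the YAP and TEAD list with a promoter (15.3% of tested genes). Those of the NF-kB element, GGGNNTTTCC, were in 3 of 6 lower NF-kB genes (2.84%), namely NFKB1, NFKBIA and TNFAIP3. GCGTGGG of the EGR element was in 1 of 5 lower immediate early genes (12.5%). CCAAT was also in all 6 lower genes of the list of unfolded protein and integrated stress responses (43.4%). These are matches of letters on either strand within 300 bases and no test of binding. In none of the 8 searches were members not called counted.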
